A study of Lachancea kluyveri with 16 samples.

Results

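How far the effect of deleting SEF1 depended on the carbon source was examined in the budding yeast Lachancea kluyveri, as the difference between mutant and wild type in glycerol medium minus the same difference in glucose medium. This difference of differences is called the interaction. It used 16 of the 16 arrays of the series, 4 for each of the 4 groups. The groups were sef1Δ cells in YPGly, a rich medium with glycerol, wild-type (WT) cells in YPGly, sef1Δ cells in YPD, a rich medium with glucose, and WT cells in YPD. WT was strain JYL1897 (MATa ura3), and the mutant SkSef1KA1 (MATa ura3 sef1Δ::KanMX6) was made from it and stands for 1 clone, so both strains carried the ura3 marker and only the mutant carried the kanamycin resistance cassette. Cultures of all groups started in YPD at 28 °C and were then set to 0.2 OD600 per ml in fresh YPGly or YPD for 5.5 h at 30 °C, so the YPGly cells were sampled 5.5 h after they left glucose. In YPGly the mutant grew slightly worse according to the study, and the part of growth in the values was not tested. The study describes its array repeats as biological replicates. The labels number the repeats of a group but do not say that they came from separate cultures, so p-values measure the spread between these arrays. In RNA from whole cultures, a change in the cells' composition and a change in RNA per cell cannot be told apart.

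Sef1 is a zinc cluster transcription factor, a fungal family that binds DNA as regulators of metabolic genes, and in Candida albicans its ortholog is known for activating iron uptake genes. In the study it was examined as a regulator of the tricarboxylic acid (TCA) cycle. Glucose represses genes for other carbon sources in yeasts, among them those of gluconeogenesis, the glyoxylate cycle and the uptake of maltose-type sugars. On glycerol, which enters metabolism through glycerol kinase and a mitochondrial glycerol-3-phosphate dehydrogenase, growth depends on respiration and hexoses are made by gluconeogenesis. A gene whose strain difference changes with the medium is one where the loss of Sef1 and the carbon source do not act additively on the log scale.

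The arrays were 1-colour arrays with 2 probes for most genes, and each value is log2 of a probe's signal over the 75th percentile of its array. A value of 0 therefore is the level of a fairly bright probe, and an interaction of 1 means a sef1Δ to WT ratio that was 2-fold higher in YPGly than in YPD. The 75th percentile of the raw signal ranged from 718 to 2410 over the arrays and 90.5% to 98.7% of probes were well above background. Replicate arrays correlated at 0.877 to 0.992 in sef1Δ in YPGly, where replicate 2 stood apart with a mean correlation of 0.901, and at 0.933 to 0.98 within the other groups. Replicates 1 and 2 of every group lay on slide 1 and replicates 3 and 4 on slide 2, so both slides held all 4 groups, and the 4 arrays of 1 replicate number shared a slide and a row on it. Each group always lay in the same column of a slide, so column and group cannot be told apart. Genes were tested with limma over all 16 arrays and called when the p adjusted after Benjamini and Hochberg was 0.05 or less and the interaction 1.5-fold or more, and all adjusted p-values below are from that test.

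SEF1 (SAKL0F12342g) itself was lost in both media. Its log2 signal was -9.18, -8.14, -5.90 and -9.38 in sef1Δ in YPGly, against -1.57, -1.59, -1.41 and -1.69 in WT in YPGly. It was -8.61, -8.09, -9.56 and -9.17 in sef1Δ in YPD, against -1.67, -2.08, -1.42 and -2.57 in WT in YPD. No mutant array came near a WT array, and the probe was well above background on 1 of 4 mutant arrays in YPGly (replicate 3) and on 0 of 4 in YPD, where the level was at least 28.9-fold lower than in WT (the mean of WT over the mean of the mutant arrays, each at the array's lowest signal well above background or its own signal if higher). The interaction of 0.34 ± 0.79 (SE) was not called (adjusted p 0.936, 95% confidence interval -1.33 to 2.00). Because the mutant values are background, this interval says nothing on how SEF1 itself responds to the medium.

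Of the 4255 genes tested, 28 were called. The strain effect was more negative in YPGly than in YPD for 11 of them (0.259% of all genes tested) and more positive for 17 (0.4%). At an unadjusted p under 0.05 there were 407 genes, 146 with a negative and 261 with a positive interaction. This fit did not use the replicate number. With that number as a block, 57 genes were called and all 28 calls were kept, so some genes given below as not called are called with the block. The strain effects were spread more widely in YPGly than in YPD. Between the 5th and the 95th percentile of genes they ran from -0.54 to 0.59 in YPGly, against -0.32 to 0.32 in YPD, around medians of 0.03 in YPGly and 0.01 in YPD. The median standard error was 0.21 for a strain effect and 0.30 for an interaction, and the middle 90% of interactions ran from -0.62 to 0.70. Scaling the arrays to their spike-in controls in place of the 75th percentile moved the median interaction of all genes from 0.03 to -0.35 and left 11 calls, 9 lower and 2 higher, those of PCK1 and PYC1. Directions below are those under the 75th percentile. Under spike-in scaling the list medians given below between 0.00 and 0.14 were negative, while their distance from the median of all genes stayed close, for example 0.05 under both scalings in the TCA cycle and -0.41 under both in cytosolic ribosomal proteins.

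In every one of the 28 called genes the strain effect was larger in size in YPGly than in YPD, though barely in YDR248C (-0.61 against 0.60). It exceeded 1.5-fold in YPGly for 28 of 28. In YPD it stayed within 1.5-fold for 27 of 28, and the exception was YDR248C at 0.60 on the log2 scale. For 19 of the 28 the effects had opposite signs in the 2 media. These counts describe genes picked by the interaction itself, which favours opposite signs, and the shares over all genes tested are not given. Some YPD effects were smaller than their SE, such as 0.07 ± 0.67 for MAL11 and -0.03 ± 0.18 for PYC1. The sign of such an effect is not settled. Over all genes the strain effect had an SD of 0.44 in YPGly, against 0.23 in YPD. A larger effect in YPGly was therefore likely in genes picked this way. The 4 sef1Δ arrays and the 4 WT arrays did not overlap in YPGly for 28 of 28 genes, against 9.54% of all genes tested. In YPD they did not overlap for 1 of 28, an ADH3 homolog (SAKL0B08184g), against 1.9% of all genes tested. The genes were called on these same arrays, so separation in a medium was largely fixed by the selection and is not separate support. The counts rested on single arrays. Leaving out any 1 of the 16 arrays lost 2 to 8 of the 28 calls, 16 genes were called without whichever array was left out, and without replicate 4 of WT in YPGly 54 genes were called in place of 28.

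**Figure D1:**
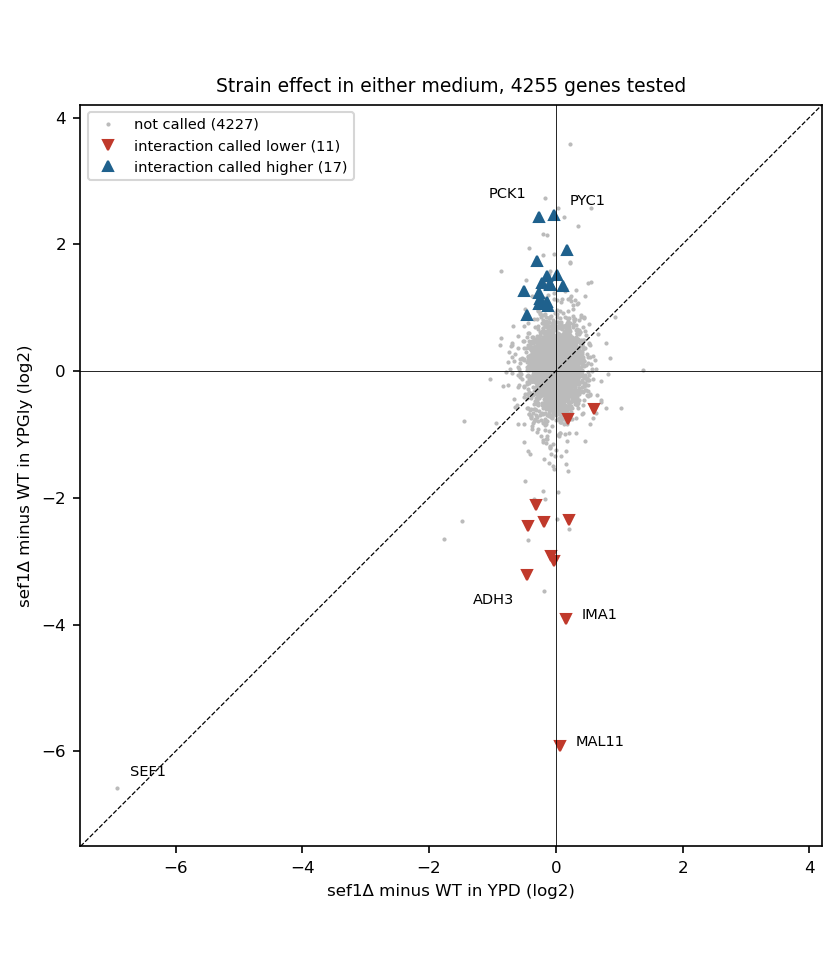
Strain effect (sef1Δ minus WT, log2 units) in YPGly on the vertical axis against that in YPD on the horizontal axis, 1 point for each of the 4255 genes tested. Triangles mark the 11 genes with a called lower and the 17 with a called higher interaction, which lie far above or below the dashed line of equal effects, mostly close to 0 on the YPD axis, while SEF1 lies near the line at the lower left.

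Genes for the uptake and splitting of maltose-type sugars held the lowest interactions among the called genes. MAL11 (SAKL0A05676g), named for the baker's yeast permease that carries maltose and other alpha-glucosides, had log2 signals of -2.47, -4.47, -5.02 and -0.92 in sef1Δ in YPGly, against 2.38, 1.76, 3.15 and 3.47 in WT in YPGly. In YPD its signals were -5.99, -6.87, -6.37 and -5.41 in sef1Δ, against -6.74, -5.72, -6.26 and -6.20 in WT. Both strains thus sat at the bottom of the scale in glucose, where the probe was well above background on 3 of 4 sef1Δ and 1 of 4 WT arrays, and the mutant arrays in glycerol lay between those levels and WT in glycerol. The level in sef1Δ relative to WT was 60.2-fold lower in YPGly (log2 -5.91), against a log2 effect of 0.07 in YPD, an interaction of -5.98 ± 0.94 (SE, 95% interval -7.98 to -3.98, adjusted p 0.00405). The gene's second probe gave -6.17.

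Beside it by locus number lay IMA1 (SAKL0A05654g), named for the isomaltase that splits isomaltose inside the cell. Its log2 signals were 0.03, -0.13, -0.66 and 0.43 in sef1Δ in YPGly, against 3.89, 3.47, 4.08 and 3.85 in WT in YPGly. In YPD they were -1.94, -2.05, -1.97 and -1.28 in sef1Δ, against -1.97, -2.14, -1.91 and -1.88 in WT. The groups were far apart in glycerol and overlapped in glucose, where only replicate 4 of sef1Δ left the others. In YPGly the level was 14.99-fold lower in sef1Δ than in WT (log2 -3.91), against a log2 effect of 0.16 in YPD. The interaction was -4.07 ± 0.31 (SE, adjusted p 2.21e-06), with the smallest p of all genes. From YPD to YPGly the level differed by 1.73 in sef1Δ, against 5.80 in WT, so the mutant kept a response to the medium of reduced size.

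An IMA5 homolog (SAKL0C00176g), another isomaltase-type gene, showed the same order of groups. Its signals were -0.48, -0.70, -1.79 and -0.55 in sef1Δ in YPGly, against 2.02, 1.57, 2.29 and 2.57 in WT in YPGly. In YPD they were -2.82, -3.03, -3.48 and -1.03 in sef1Δ, against -2.29, -2.52, -2.94 and -2.51 in WT, with replicate 4 of sef1Δ above all others in glucose. In YPGly the level was 7.97-fold lower in sef1Δ than in WT (log2 -2.99), against a log2 effect of -0.02 in YPD (interaction -2.97 ± 0.59 SE, adjusted p 0.0236). This call was lost without replicate 3 of sef1Δ in YPGly, replicate 1 or 3 of WT in YPGly or replicate 3 of WT in YPD, with an adjusted p of at most 0.0706 and an interaction of -3.27 to -2.45 over all single arrays left out.

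The list of sugar uptake and disaccharide genes had 15 members tested, of which 3 (MAL11, IMA1 and IMA5) were called lower, 0 higher, and 11 had a negative interaction. Its median interaction was -1.29, against 0.03 for all genes, and it was -0.62 on slide 1 alone and -1.97 on slide 2 alone. Members outside the called 3 are named here after their values were seen. Other isomaltase homologs had interactions of -2.70 (IMA5, SAKL0A00154g, adjusted p 0.171, or 0.0432 with the replicate block), -2.36 (IMA1, SAKL0C02112g, adjusted p 0.228) and -1.29 (IMA1, SAKL0A05698g, adjusted p 0.285), and in each of them the strains did not overlap in YPGly. For SAKL0C02112g the second probe gave -4.22 and a call (adjusted p 0.000623), as did the mean of both probes (-3.29, adjusted p 0.0143), so its call depended on the probe. The array's own probe names record that the probe of IMA1 SAKL0A05654g also matches SAKL0A05698g, and that of IMA5 SAKL0C00176g also matches SAKL0C02112g, so the levels of these pairs are not fully separate. RGT2 (SAKL0B00264g), named for a glucose sensor of the hexose transporter family, had -3.29 ± 1.1 (SE, adjusted p 0.294), with 0 of 4 WT arrays in YPD well above background. The hexose transporter homologs HXT2, HXT4 and HXT8 were among the 4 members above 0, and the whole list reached 0.56 at most.

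Both tested ADH3 homologs were called lower, and these were 2 of the 25 tested genes of glycolysis and fermentation (0 were called higher). In baker's yeast ADH3 encodes the alcohol dehydrogenase of mitochondria. ADH3 (SAKL0E02838g) had log2 signals of 0.13, 0.52, 0.21 and 0.64 in sef1Δ in YPGly, against 3.32, 3.22, 3.93 and 3.91 in WT in YPGly. In YPD it had 2.87, 2.78, 2.27 and 2.90 in sef1Δ, against 3.18, 3.12, 2.88 and 3.43 in WT. The mutant in glycerol was thus far below all 12 other arrays, and the mutant in glucose only slightly below WT. In YPGly the level was 9.34-fold lower in sef1Δ than in WT (log2 -3.22), against a log2 effect of -0.45 in YPD (interaction -2.77 ± 0.29 SE, adjusted p 6.49e-05). In sef1Δ the gene was 5.02-fold lower in YPGly than in YPD, whereas in WT it was 1.36-fold higher, so the direction of the medium difference was opposite in the 2 strains.

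The second copy, ADH3 (SAKL0B08184g), had 2.84, 3.59, 2.60 and 3.32 in sef1Δ in YPGly, against 5.33, 5.15, 5.72 and 5.92 in WT in YPGly. Its YPD values were 4.04, 4.01, 3.37 and 3.77 in sef1Δ, against 4.18, 4.23, 4.05 and 4.50 in WT. It was the only called gene in which the strains did not overlap in glucose either, although the nearest arrays there were 4.04 in sef1Δ and 4.05 in WT. In YPGly the level was 5.44-fold lower in sef1Δ than in WT (log2 -2.44), against a log2 effect of -0.44 in YPD (interaction -2.0 ± 0.33 SE, adjusted p 0.00517). For both copies the second probe agreed in sign and size, at -2.32 for SAKL0E02838g and -2.30 for SAKL0B08184g.

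The other genes of glycolysis and fermentation did not share this pattern. The list's median interaction was -0.15, against 0.03 for all genes, with 16 of 25 members below 0, and it ran from -0.50 without sef1Δ replicate 2 in YPGly to 0.03 without sef1Δ replicate 3 in YPGly. At the other end, a TDH3 homolog (SAKL0H24926g), of the glyceraldehyde-3-phosphate dehydrogenase family, which is named after its values were seen, had 2.94, 1.81, 3.06 and 3.12 in sef1Δ in YPGly, against 0.66, 1.08, 0.09 and 1.80 in WT in YPGly. On glucose its signals were 1.27, 1.19, 0.44 and 0.73 in sef1Δ, against 1.1, 1.17, 0.87 and 1.31 in WT. The strains did not overlap in glycerol and overlapped in glucose, and the interaction of 2.04 ± 0.47 (SE) was not called (adjusted p 0.0664). It was called without replicate 2 of sef1Δ in YPGly (2.34, adjusted p 0.0124) and when replicate 4 of WT in YPGly was left out (2.34, adjusted p 0.0126), and with the replicate block (adjusted p 0.0387).

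The 6 other genes called lower had no role in common that the symbols show. ECM27 (SAKL0F15136g) had -6.59, -8.16, -6.74 and -6.18 in sef1Δ in YPGly, against -4.45, -3.89, -4.02 and -3.65 in WT in YPGly. The YPD arrays had -2.10, -2.21, -2.08 and -2.04 in sef1Δ, against -2.10, -1.79, -2.18 and -2.06 in WT. It was thus lower in YPGly than in YPD in both strains and lowest in the mutant, where 3 of 4 arrays were well above background (interaction -2.84 ± 0.43 SE, adjusted p 0.00343). With the normexp background correction the interaction was -0.74 and the call was lost (adjusted p 0.399). The conserved hypothetical gene SAKL0H07018g had 3.36, 2.74, 2.57 and 3.3 in sef1Δ in YPGly, against 4.90, 5.33, 5.56 and 5.71 in WT in YPGly, and lay between -3.35 and -2.44 on all 8 arrays in YPD. It was 58.5-fold higher in YPGly than in YPD in sef1Δ, against 267-fold in WT (interaction -2.19 ± 0.32 SE, adjusted p 0.00328).

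SAKL0F16324g, also conserved and without a known role, had -0.59, -0.89, -1.05 and -0.21 in sef1Δ in YPGly, against 1.16, 1.71, 2.17 and 1.62 in WT in YPGly. In YPD it had -2.87, -2.12, -3.02 and -2.01 in sef1Δ, against -2.68, -2.35, -3.00 and -2.85 in WT. The glycerol groups were again separate and the glucose groups mixed (interaction -2.57 ± 0.38 SE, adjusted p 0.00328). SAKL0B05940g, annotated with the study as similar to a bacterial regulator, was 4.34-fold lower in sef1Δ than in WT in YPGly. It had a log2 effect of -0.31 in YPD (interaction -1.80 ± 0.35 SE, adjusted p 0.0207). YDR248C (SAKL0H11726g), similar to gluconokinases, was 1.52-fold lower in sef1Δ in YPGly (log2 -0.61) and higher by 0.60 in YPD. Its interaction of -1.20 ± 0.26 (SE, adjusted p 0.0488) thus came from effects of like size and opposite sign. YRB1 (SAKL0C11154g), a Ran-binding protein of nuclear transport in baker's yeast, had the smallest interaction among the called genes, -0.94 ± 0.20 (SE, adjusted p 0.0419). The calls of the last 3 depended on single arrays, since SAKL0B05940g lost its call without any of 5 arrays, YRB1 without any of 11 and YDR248C without any of 14, with adjusted p-values up to 0.122 and interactions within -2.0 to -1.61, -1.03 to -0.85 and -1.31 to -1.07. In the same order, all 3 also lost their call with the normexp background (adjusted p 0.0732, 0.0598 and 0.0854). They lost it with the second probe as well (adjusted p 0.0859, 0.127 and 0.0795).

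**Figure D2:**
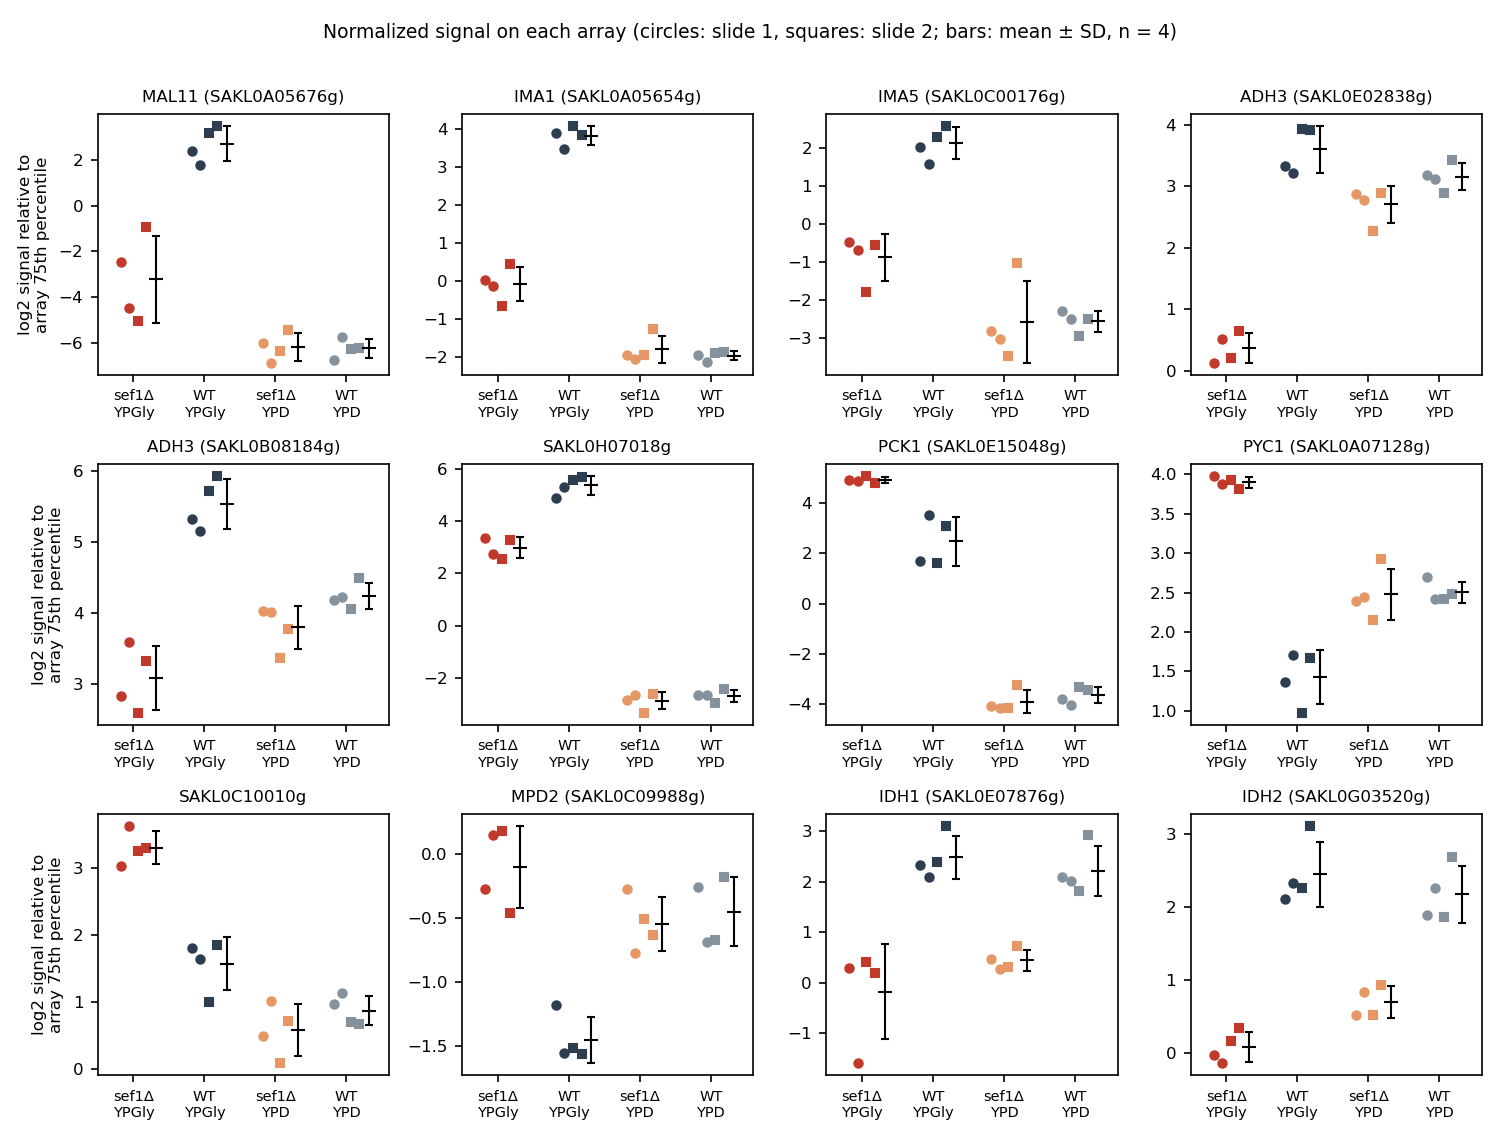
Log2 signal relative to the 75th percentile of each array, for 12 genes on all 16 arrays, with sef1Δ in YPGly, WT in YPGly, sef1Δ in YPD and WT in YPD from left to right, circles for slide 1, squares for slide 2, and bars for the mean ± SD of 4 arrays. In YPGly the sef1Δ arrays lie below WT for MAL11, IMA1, IMA5, both ADH3 copies and SAKL0H07018g and above WT for PCK1, PYC1, SAKL0C10010g and MPD2, with the strains close together in YPD, and for IDH1 and IDH2 the sef1Δ arrays lie below WT in both media.

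An enzyme of gluconeogenesis and one that refills oxaloacetate had the highest interactions of the called genes. PCK1 (SAKL0E15048g) encodes phosphoenolpyruvate carboxykinase, which starts gluconeogenesis from oxaloacetate. Its log2 signals were 4.90, 4.86, 5.05 and 4.79 in sef1Δ in YPGly, against 1.69, 3.53, 1.6 and 3.07 in WT in YPGly. In YPD they were -4.08, -4.15, -4.14 and -3.22 in sef1Δ, against -3.77, -4.01, -3.32 and -3.42 in WT. The mutant arrays in glycerol lay close together and above all WT arrays, which spread widely. PCK1 was 444-fold higher in YPGly than in YPD in sef1Δ, against 68.6-fold in WT. In YPGly its level was 5.38-fold higher in sef1Δ than in WT (log2 2.43), against a log2 effect of -0.27 in YPD. The interaction was 2.70 ± 0.51 (SE, 95% interval 1.62 to 3.77, adjusted p 0.0186).

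PYC1 (SAKL0A07128g) encodes pyruvate carboxylase, which makes oxaloacetate from pyruvate. It had 3.97, 3.88, 3.93 and 3.81 in sef1Δ in YPGly, against 1.37, 1.71, 0.97 and 1.67 in WT in YPGly. Its YPD values were 2.39, 2.44, 2.15 and 2.93 in sef1Δ, against 2.70, 2.42, 2.42 and 2.49 in WT. In glycerol the mutant lay above, and WT below, every array of either strain in glucose. The medium difference had opposite directions, 2.68-fold higher in YPGly in sef1Δ and 2.11-fold lower in WT, and the interaction was 2.50 ± 0.26 (SE, 95% interval 1.95 to 3.04, adjusted p 6.49e-05). The second probe of PYC1 gave 2.54. That of PCK1 gave 2.22 without a call (adjusted p 0.313), and the mean of both PCK1 probes, 2.46, was not called either (adjusted p 0.0561).

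These were 2 of the 7 tested genes of gluconeogenesis and the glyoxylate cycle, and 0 were called lower. The median interaction of the list was 2.36, against 0.03 for all genes, and it was 2.37 on slide 1 alone and 1.92 on slide 2 alone. The glyoxylate cycle genes ICL1 (isocitrate lyase, SAKL0F08756g) and MLS1 (malate synthase, SAKL0E10846g) had interactions of a like size without a call. ICL1 had 3.89, 3.17, 4.15 and 3.6 in sef1Δ in YPGly, against 0.97, 1.51, 0.11 and 3.57 in WT in YPGly. MLS1 had 3.41, 3.53, 3.43 and 2.97 in sef1Δ in YPGly, against 0.53, 2.10, 0.06 and 2.86 in WT in YPGly. In ICL1 replicate 4 of WT lay apart from the other WT arrays and among the mutant arrays, and in MLS1 replicates 2 and 4 of WT lay above replicates 1 and 3 and nearer to the mutant.

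With all arrays, ICL1 had an interaction of 2.36 ± 0.71 and MLS1 one of 2.37 ± 0.71 (SE, adjusted p 0.228 for either). When replicate 4 of WT in YPGly was left out both were called, ICL1 at 3.03 (adjusted p 0.00432) and MLS1 at 2.86 (adjusted p 0.032). FBP1 (SAKL0H03740g), the fructose-1,6-bisphosphatase of gluconeogenesis, had 0.96 ± 0.45 (SE, adjusted p 0.52), with all 4 mutant arrays in YPGly above the 4 WT arrays. The remaining members did not follow, with -0.51 for MDH2 (SAKL0C12760g, malate dehydrogenase, adjusted p 0.594) and -0.48 for ICL2 (SAKL0B03212g, related to isocitrate lyase, adjusted p 0.801).

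The 15 other genes called higher included 4 without a symbol. The conserved hypothetical gene SAKL0C10010g had 3.04, 3.63, 3.27 and 3.31 in sef1Δ in YPGly, against 1.81, 1.65, 1.00 and 1.85 in WT in YPGly. On glucose its signals were 0.50, 1.01, 0.09 and 0.71 in sef1Δ, against 0.96, 1.13, 0.71 and 0.67 in WT, so the strains overlapped there (interaction 2.02 ± 0.31 SE, adjusted p 0.00343). Its neighbour by locus number, MPD2 (SAKL0C09988g), of the protein disulfide isomerase family, had -0.28, 0.15, 0.18 and -0.46 in sef1Δ in YPGly, against -1.19, -1.55, -1.52 and -1.56 in WT in YPGly. The YPD arrays had -0.27, -0.77, -0.51 and -0.63 in sef1Δ, against -0.26, -0.69, -0.67 and -0.18 in WT. MPD2 was thus set apart by the low level of WT in glycerol (interaction 1.45 ± 0.26 SE, adjusted p 0.013).

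SAKL0H11770g differed from the others in its medium response. It had -2.90, -3.02, -2.63 and -3.38 in sef1Δ in YPGly, against -3.79, -4.80, -4.60 and -4.71 in WT in YPGly, and lay between 0.47 and 1.09 on all 8 arrays in YPD. It was 14.2-fold lower in YPGly than in YPD in sef1Δ, against 43.8-fold in WT (interaction 1.63 ± 0.31 SE, adjusted p 0.0195). HRP1 (SAKL0C12672g), a messenger RNA processing factor, was also lower in YPGly than in YPD in WT (3.00-fold), against 1.15-fold in sef1Δ (interaction 1.38 ± 0.27 SE, adjusted p 0.0207). PSF3 (SAKL0C13794g), a subunit of the GINS complex of DNA replication, had 0.69, 1.25, 0.58 and 0.64 in sef1Δ in YPGly, while its other 12 arrays lay between -1.33 and -0.52 (interaction 1.5 ± 0.23 SE, adjusted p 0.00343). YKR045C (SAKL0C07084g) was likewise higher in sef1Δ in YPGly alone (interaction 1.61 ± 0.25 SE, adjusted p 0.00343).

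Interactions of 1.15 to 1.76 were found for the remaining 9 genes. RCR2 (SAKL0C10890g, a vacuolar protein in baker's yeast), SAKL0D06292g, CCC2 (SAKL0H20108g, a copper transporting ATPase), YIL151C (SAKL0E15004g), YKU80 (SAKL0E03652g, a subunit of the Ku complex at DNA ends), SAKL0E12166g and YGL242C (SAKL0F00858g) had 1.74, 1.76, 1.47, 1.48, 1.35, 1.32 and 1.23. KCS1 (SAKL0D04246g, an inositol hexakisphosphate kinase, 1.23) and SPP1 (SAKL0H07172g, of the COMPASS histone methylation complex, 1.15) are named after their values were seen. For 2 of these genes the second probe disagreed in sign, at -0.08 for SAKL0D06292g and -0.30 for YGL242C, and it was weak for YIL151C (0.32) and YKU80 (0.54), and for PSF3 above (0.76). RCR2 lost its call without any of 12 arrays, SAKL0E12166g of 13, CCC2 of 12, SPP1 of 7, HRP1, KCS1 and YIL151C of 2 and YGL242C of 1, with adjusted p-values up to 0.119. With the second probe in place of the brighter one, HRP1 (adjusted p 0.0765), SAKL0H11770g (0.133), KCS1 (0.0938), CCC2 (0.0881), SAKL0E12166g (0.371), SPP1 (0.163), PSF3 (0.61), YIL151C (0.765) and YKU80 (0.718) kept their sign and lost their call.

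**Figure D3:**
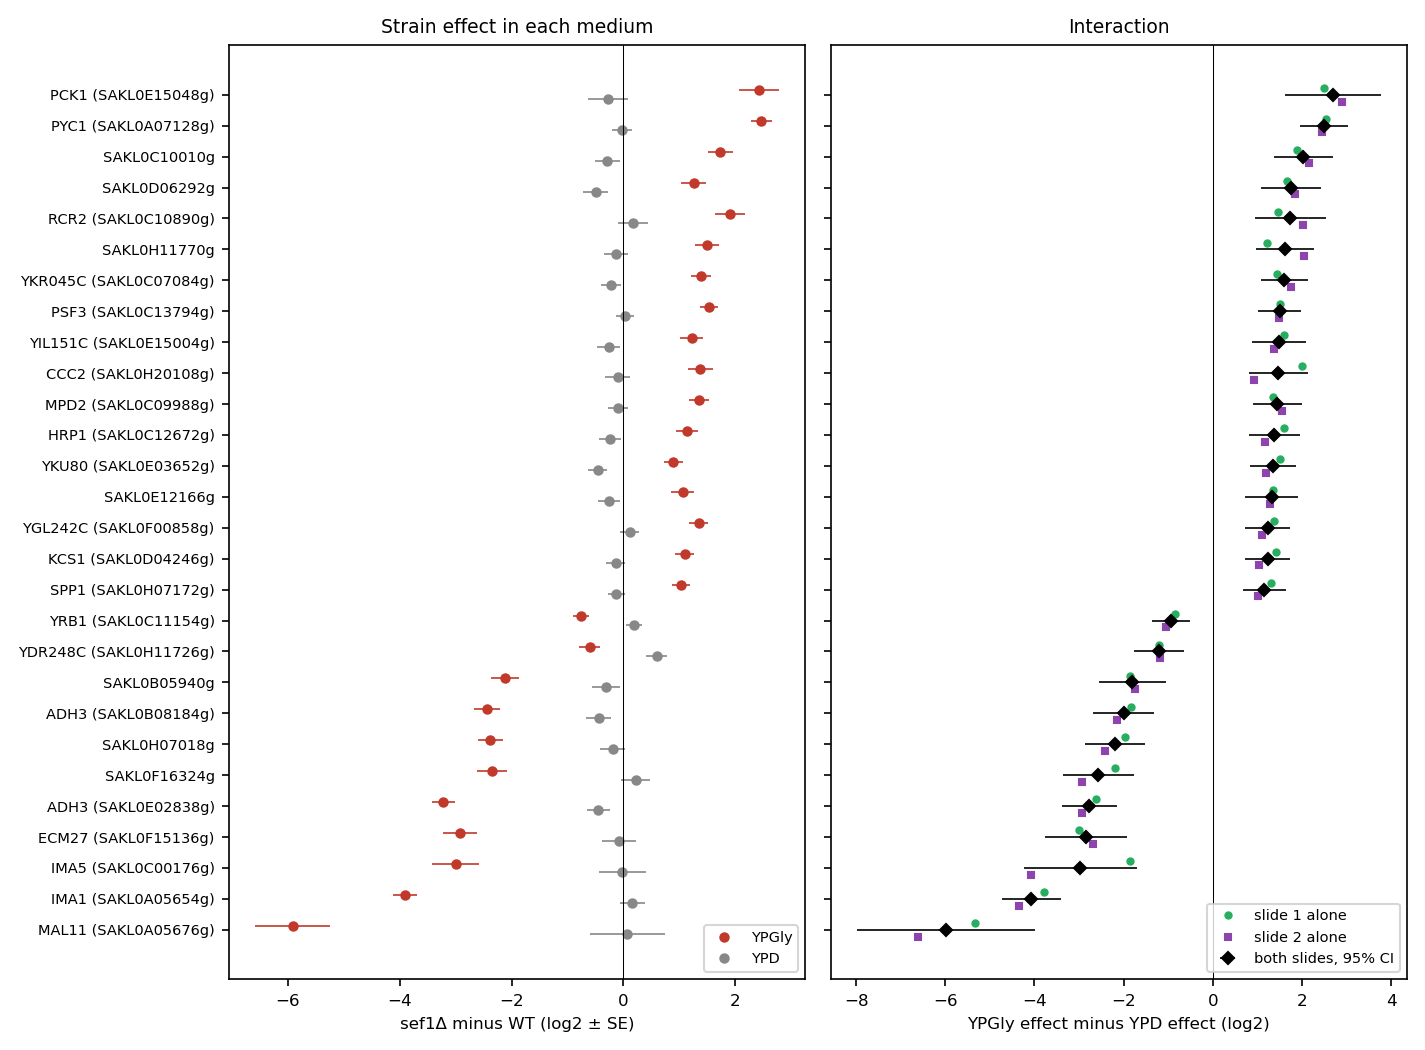
The 28 called genes, with the strain effect (sef1Δ minus WT, log2 ± SE) in YPGly (red) and YPD (grey) on the left, and the interaction with its 95% confidence interval on the right beside the values from slide 1 alone (circles) and slide 2 alone (squares). YPD effects ran from -0.50 to 0.60, and the smallest YPGly effect was 0.61 in size. All 28 interactions kept their sign on either slide, but the slides are parts of the data that gave the calls, so this is not separate support.

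The sign of an interaction did not fix the response of WT to glycerol. Of the 11 genes called lower, 6 were higher in YPGly than in YPD in sef1Δ and 9 in WT. Of the 17 called higher, 15 were higher in YPGly in sef1Δ and 10 in WT, against 41.8% of all tested genes in WT. The share over all genes in sef1Δ is not given. The interaction is also the medium response of sef1Δ minus that of WT. Picking genes by it therefore shaped these counts, and they are not a separate result. For 26 of the 28 called genes every one of the 16 arrays gave a signal well above background, and MAL11 and ECM27 were the exceptions. The share over all genes is not given, so this count does not set the called genes apart. A signal above background also did not make a call hold on the gene's other probe. With the dimmer probe, 27 of the called genes were tested, of which 12 kept their call and 25 their sign. On slide 1 alone the interactions of the called genes were 0.84 to 5.34 in size, and on slide 2 alone 0.93 to 6.62.

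The TCA cycle genes, for which the study examined Sef1, showed no call in the interaction (0 of 21 lower, 0 of 21 higher by limma, with 4 lower and 0 higher at an unadjusted p under 0.05). Their median interaction was 0.08, against 0.03 for all genes, 9 lay below and 12 above 0, and the median was 0.18 on slide 1 alone and -0.01 on slide 2 alone. Without replicate 4 of WT in YPGly it was 0.33, and the median strain effect in YPGly was then -0.19 in place of -0.37. IDH1 and IDH2 encode the subunits of the mitochondrial NAD-dependent isocitrate dehydrogenase. IDH1 (SAKL0E07876g) had 0.29, -1.59, 0.40 and 0.20 in sef1Δ in YPGly, against 2.34, 2.09, 2.39 and 3.10 in WT in YPGly. In YPD it had 0.47, 0.27, 0.31 and 0.73 in sef1Δ, against 2.10, 2.01, 1.82 and 2.92 in WT. The strains did not overlap in either medium, and replicate 2 of sef1Δ in YPGly lay below all other arrays.

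The strain effect of IDH1 was -2.66 in YPGly and -1.77 in YPD, an interaction of -0.89 ± 0.52 (SE, 95% interval -2.0 to 0.22, adjusted p 0.622), and without replicate 2 of sef1Δ in YPGly it was -0.42. IDH2 (SAKL0G03520g) had -0.03, -0.15, 0.15 and 0.33 in sef1Δ in YPGly, against 2.11, 2.32, 2.26 and 3.10 in WT in YPGly. Its YPD values were 0.51, 0.83, 0.51 and 0.92 in sef1Δ, against 1.88, 2.25, 1.85 and 2.68 in WT. Its groups, too, were separate in both media, with effects of -2.37 in YPGly and -1.47 in YPD (interaction -0.90 ± 0.32 SE, 95% interval -1.57 to -0.22, adjusted p 0.317). The interval of IDH2 lay below 0 and that of IDH1 did not, and neither gene passed the adjustment over all genes.

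ACO1 (SAKL0H24046g), the mitochondrial aconitase that acts just before them, tended the other way. It had 3.68, 3.22, 3.21 and 3.56 in sef1Δ in YPGly, against 3.94, 3.92, 4.06 and 4.90 in WT in YPGly. On glucose its signals were 1.65, 2.46, 1.48 and 2.38 in sef1Δ, against 3.42, 3.25, 3.39 and 3.74 in WT. The strains did not overlap in either medium, with effects of -0.79 in YPGly and -1.45 in YPD (interaction 0.67 ± 0.36 SE, 95% interval -0.08 to 1.42, adjusted p 0.58).

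KGD2 (SAKL0H15422g, of the 2-oxoglutarate dehydrogenase complex) and IDP1 (SAKL0H02860g, a mitochondrial NADP-dependent isocitrate dehydrogenase) had interactions of -0.64 (adjusted p 0.347) and -0.61 (adjusted p 0.429). The lowest of the list was CIT3 (SAKL0B02926g, citrate synthase family), whose values were 2.09, 1.6, 1.01 and 2.11 in sef1Δ in YPGly, against 2.93, 3.46, 3.27 and 4.78 in WT in YPGly. In YPD it was well above background on 2 of 4 sef1Δ and 0 of 4 WT arrays, so its interaction of -1.94 (adjusted p 0.294) set a measured difference in glycerol against background in glucose, and it was called under quantile normalization (-2.51, adjusted p 0.0457). The highest besides ACO1 were IDP3 (SAKL0D08426g, a peroxisomal isocitrate dehydrogenase in baker's yeast) at 1.00 (adjusted p 0.729, but -0.05 from its second probe) and MDH3 (SAKL0E04928g, peroxisomal malate dehydrogenase) at 0.56 (adjusted p 0.636). The members not named had interactions under 0.5 in size.

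Of the 6 tested genes of glycerol uptake and use, 0 were called lower and 0 higher by limma, with 1 lower and 0 higher at an unadjusted p under 0.05, and the list's median interaction was 0.03 (0.38 on slide 1 alone, -0.30 on slide 2 alone). GUT1 (SAKL0H25938g), glycerol kinase, was 7.09-fold higher in YPGly than in YPD in sef1Δ, against 7.50-fold in WT (interaction -0.08, 95% interval -1.14 to 0.98). GUT2 (SAKL0E15114g), the mitochondrial glycerol-3-phosphate dehydrogenase, was 5.67-fold higher in sef1Δ, against 5.96-fold in WT (interaction -0.07, 95% interval -1.13 to 0.98). These intervals reach about 1 log2 unit to either side, and the sign of either value depended on single arrays. Replicate 4 of sef1Δ in YPD was the highest glucose array for both genes, at -0.72 for GUT1, against -2.73 to -1.76 on the 7 other arrays in YPD, and at 2.54 for GUT2, against -0.22 to 1.04. Without that array the interactions were 0.34 for GUT1 and 0.37 for GUT2. FPS1 (SAKL0H25916g), the glycerol channel, was 2.70-fold lower in YPGly than in YPD in sef1Δ, against 1.85-fold in WT (interaction -0.55, 95% interval -1.06 to -0.04, adjusted p 0.459).

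**Figure D4:**
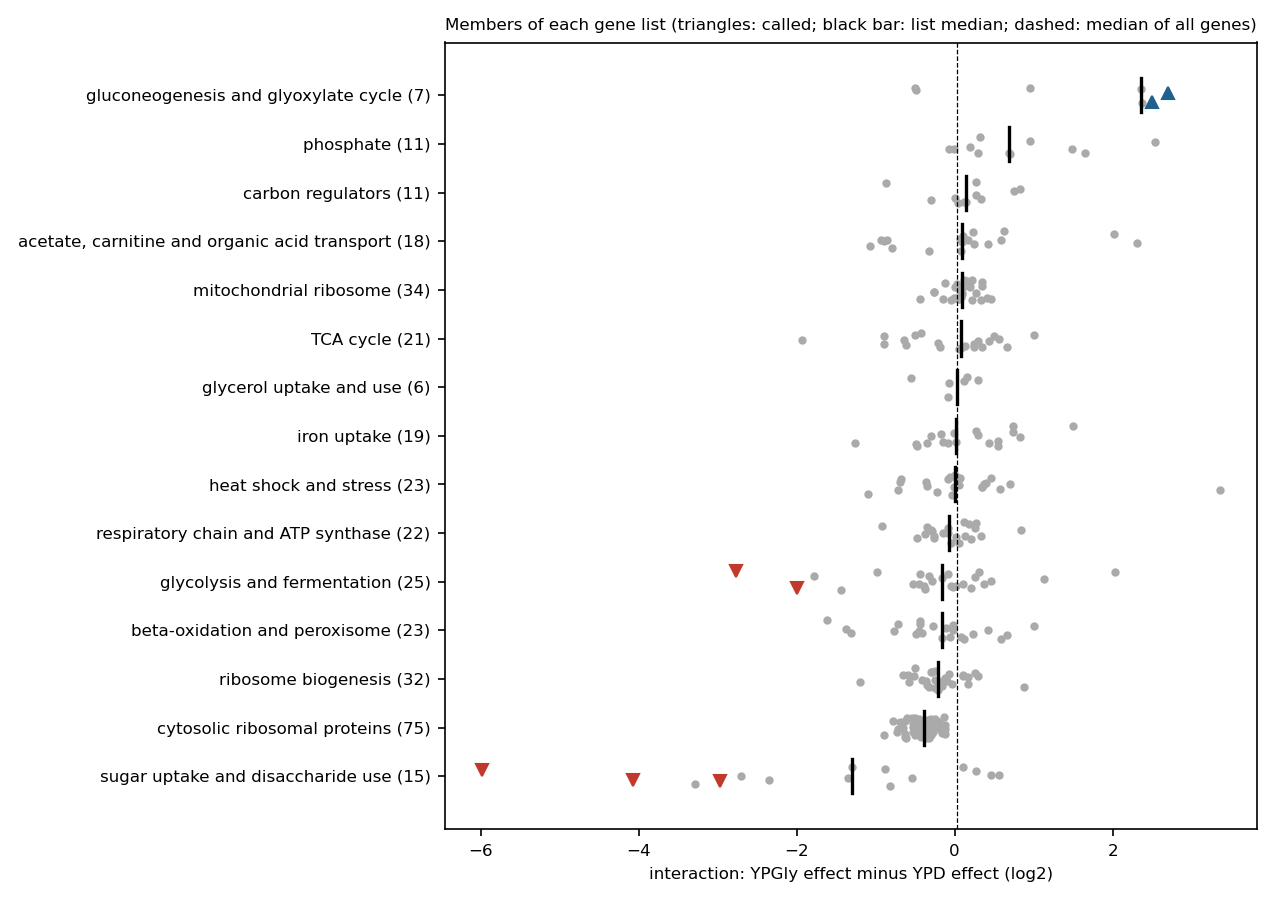
Interaction (log2) of every tested member of 15 gene lists, 1 point per gene with the number tested in brackets, triangles for called genes, a black bar for the list's median and a dashed line for the median of all genes. The gluconeogenesis and glyoxylate list has the highest median (2.36) and the sugar uptake and disaccharide list the lowest (-1.29), while the TCA cycle members lie on both sides of 0.

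Cytosolic ribosomal protein genes, of which 75 were tested, had negative interactions of small size (-0.90 to -0.12, median -0.39) in the fit over all arrays, and 0 were called (smallest adjusted p 0.294, 12 at an unadjusted p under 0.05, all lower). On slide 1 alone the median was -0.74 with 75 of 75 below 0, and on slide 2 alone it was -0.02 with 42 of 75 below 0, so the negative median did not hold within slide 2. The median strain effect of the list was -0.31 in YPGly and 0.09 in YPD. The genes with the smallest p were RPL24B (SAKL0H21164g) at -0.63 and RPL9B (SAKL0E08888g) at -0.78. Ribosome biogenesis genes had a median of -0.21 with 25 of 32 below 0 and 0 called by limma (1 lower and 1 higher at an unadjusted p under 0.05). Their median was -0.41 on slide 1 alone and -0.01 with 17 of 32 below 0 on slide 2 alone, and it ran from -0.45 without sef1Δ replicate 4 in YPD to -0.05 without WT replicate 4 in YPD. The members of smallest p had opposite signs, UTP20 (SAKL0C11330g, a processing factor of the small subunit) at 0.88 (adjusted p 0.117, or 0.0292 with the replicate block) and NOP16 (SAKL0F04752g) at -1.20 (adjusted p 0.407). The mitochondrial ribosome had a median of 0.10 with 27 of 34 members above 0 (-0.43 to 0.45) and 0 called by limma (0 at an unadjusted p under 0.05), and without sef1Δ replicate 4 in YPD the median was -0.07 with 21 of 34 below 0.

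**Figure D5:**
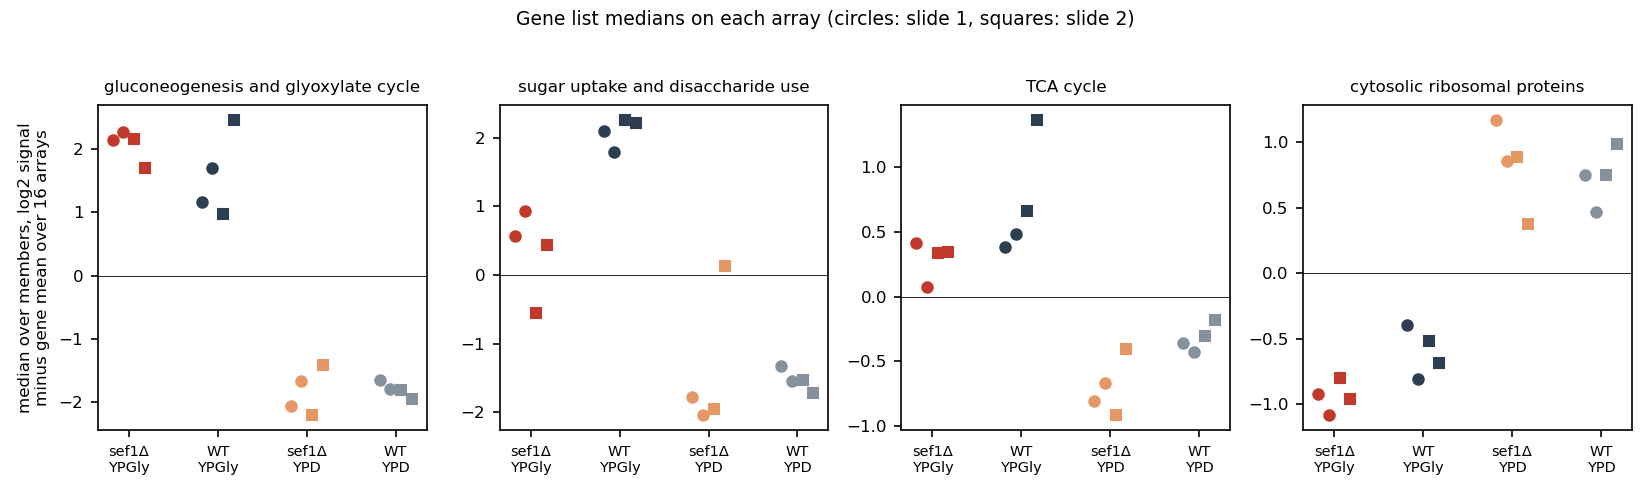
Median over the members of 4 gene lists on each array (log2 signal minus each gene's mean over the 16 arrays), with sef1Δ in YPGly, WT in YPGly, sef1Δ in YPD and WT in YPD from left to right, circles for slide 1 and squares for slide 2. Replicate 4 of WT in YPGly is the highest array of the gluconeogenesis and glyoxylate (2.46) and TCA cycle (1.36) lists. Replicate 4 of sef1Δ in YPD lies above the other arrays of its group in both. It departs most in the sugar uptake and disaccharide list, at 0.14, against -2.04 to -1.78 on the others of its group.

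Phosphate genes had a median interaction of 0.69 with 9 of 11 above 0 (0.60 on slide 1 alone, 0.66 on slide 2 alone) and 0 called by limma (2 at an unadjusted p under 0.05, both higher). Single arrays moved that median, to 0.20 without WT replicate 2 in YPD, 0.21 without sef1Δ replicate 3 in YPD and 0.39 without WT replicate 3 in YPGly. It was 0.32 under spike-in scaling, where its distance from the median of all genes was 0.66 as under the 75th percentile. The members of smallest p were the GIT1 homologs, named for a glycerophosphoinositol transporter. GIT1 (SAKL0G07480g) had 0.37, 1.08, 0.58 and 1.16 in sef1Δ in YPGly, against -2.58, -1.13, -2.77 and -0.64 in WT in YPGly, and all 8 arrays in YPD lay between -6.67 and -4.58. The glycerol groups were separate, and the interaction of 2.54 ± 0.70 (SE) was not called (adjusted p 0.16), although it was without WT replicate 4 in YPGly (2.92, adjusted p 0.0437) and with the replicate number, which is also the slide row, as a block (adjusted p 0.013). The other copy (SAKL0G04994g) had 1.48 (adjusted p 0.494).

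Acetate, carnitine and organic acid genes had a median of 0.10 over 18 tested genes, with 0 called by limma (3 at an unadjusted p under 0.05, all higher). Their members of smallest p were ALD5 (SAKL0F09108g), a mitochondrial aldehyde dehydrogenase, at 2.31 (adjusted p 0.279) and JEN1 (SAKL0G14938g), a lactate and pyruvate permease. JEN1 had 4.52, 4.04, 4.37 and 4.66 in sef1Δ in YPGly, against 1.77, 1.72, 1.49 and 2.31 in WT in YPGly. The YPD arrays had -1.32, -0.96, -1.86 and 1.54 in sef1Δ, against -0.76, -0.54, -1.72 and -1.82 in WT. Replicate 4 of sef1Δ lay far above the other glucose arrays, and the interaction of 2.02 (adjusted p 0.337) was 2.75 without it (adjusted p 0.00773).

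Respiratory chain and ATP synthase genes (22 tested, median -0.07), iron uptake genes (19 tested, median 0.02), heat shock and stress genes (23 tested, median 0.00), peroxisome and beta-oxidation genes (23 tested, median -0.16) and regulators of carbon metabolism (11 tested, median 0.14) each had 0 genes called lower and 0 called higher by limma. At an unadjusted p under 0.05 they held 1, 3, 1, 1 and 1 genes. The members of smallest p were NDI1 (SAKL0C09438g, an NADH dehydrogenase of mitochondria, 0.83) and COX26 (SAKL0H16786g, -0.92), FET2 (SAKL0H26202g, 1.5, adjusted p 0.37) and ARN4 (SAKL0E00132g, -1.26, adjusted p 0.412, with 0 of 4 WT arrays in YPD well above background), HSP31 (SAKL0G16126g, -1.09) and SPS100 (SAKL0E12298g, -0.68), SPS19 (SAKL0E13464g, -1.37, adjusted p 0.429) and PEX2 (SAKL0C03762g, 0.58), and OAF1 (SAKL0D14542g, a regulator of oleate response genes, 0.83, adjusted p 0.21) and XBP1 (SAKL0E07964g, 0.75). HSP31, a stress protein, had an adjusted p of 0.228 and was called without WT replicate 4 in YPGly (-1.30, adjusted p 0.0367). The 4 arrayed neighbours of SEF1 had interactions of -0.40 to 0.35 and 0 calls by limma (smallest adjusted p 0.755, 0 at an unadjusted p under 0.05).

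Genes that the study assigned to Sef1 binding peaks made up 10 of the 28 called genes, 4 lower and 6 higher. Of the 657 bound genes tested, 1.52% were called, against 0.658% of all genes tested, and their median interaction was 0.07. The called bound genes were both ADH3 copies, SAKL0H07018g and SAKL0B05940g among the lower ones, and PCK1, PYC1, SAKL0C10010g, MPD2, YKU80 and SPP1 among the higher ones. MAL11, IMA1 and IMA5, the called genes with the lowest interactions, were not on the bound list.

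The medium in which binding was found did not follow the sign of the interaction in a simple way. Genes bound in glycerol only (318 tested) had a median interaction of 0.14, with 2 called lower (SAKL0H07018g and ADH3 SAKL0B08184g) and 2 higher (PCK1 and SPP1), and the median was 0.22 on slide 1 alone and 0.19 on slide 2 alone. Genes bound in glucose only (94 tested) had -0.23, with 1 called lower (ADH3 SAKL0E02838g) and 0 higher, and this median was -0.34 on slide 1 alone, near 0 on slide 2 alone and -0.14 without sef1Δ replicate 1 in YPD. In that list ROY1 (SAKL0D02310g) had -1.52 (adjusted p 0.154), and it was called without WT replicate 4 in YPGly (-1.87, adjusted p 0.00625). Genes bound in both media (245 tested) had 0.05, with 1 called lower (SAKL0B05940g) and 4 higher (PYC1, SAKL0C10010g, MPD2 and YKU80). Thus PYC1 and ADH3 SAKL0E02838g, with strain effects of 2.47 and -3.22 in YPGly and -0.03 and -0.45 in YPD, carried peaks in glucose. Of the 50 tested genes of the strongest glycerol peaks, 1 was called lower (SAKL0B05940g) and 0 higher, with a median interaction of 0.03. Next in order of p among them came BRR6 (SAKL0F00682g, -0.79, adjusted p 0.28).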

How the data were processed

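The 16 samples were RNA preparations of L. kluyveri on 1-colour custom Agilent arrays. Spot signals were extracted by the authors with Feature Extraction 10.5.1.1, per the file headers. Its processed signal is deposited as an intensity on a linear scale, background-subtracted and not scaled between arrays. Median spot and median background intensities, also deposited, served 1 alternative. The deposited flags are other codes of the same software, used as given. The deposited series matrix holds log2 values that the authors scaled to the 75th percentile, which differed from the values computed here by 0.00235 to 0.00787 per array, and it was an alternative. The authors' gene counts came from an uncorrected test and were not used.

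Here each processed signal was divided by the 75th percentile of its array's 10620 gene probes and put on the log2 scale. The 32 non-uniform spots were left out, and the brighter probe of a gene over all arrays stood for it. Of 5316 genes, 4255 were tested, those reaching a signal of 200 throughout 1 or more groups, so genes dim in all groups were left out. The interaction was fitted with limma 3.58.1 in R 4.3.3 (lmFit, eBayes, 4 group means, 12 residual degrees of freedom), which was checked on simulated data. The number of arrays limits the precision. Symbols name baker's yeast orthologs, as in the study's supplementary tables, held here in part, and cover 2208 of the tested genes, and some stem from tables of genes picked on these arrays. No sequences or coordinates were used.

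Groups and replicate numbers came from the sample titles and slides from the file headers. Members and lists were chosen with earlier results of these data known. Named genes are SEF1, up to 15 called genes in each direction, the members of the TCA cycle, glycerol and gluconeogenesis lists, and the 2 members of smallest p of every other list. After their values were seen, members of those 3 lists with an interaction under 0.5 in size, other than GUT1, GUT2 and ICL2, were left to a range. Alternatives covered the block, slide, scaling, background, probe, filter, weights, variance, fold and leaving out each array.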

Additional observations from a re-analysis of the deposited data

Results flagged for a closer look

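The strain effects of 28 genes differed between the media by the test of the difference itself. The interactions were -5.98 for MAL11, -4.07 for IMA1 (SAKL0A05654g), -2.97 for IMA5 (SAKL0C00176g), -2.84 for ECM27, -2.77 for ADH3 (SAKL0E02838g), -2.57 for SAKL0F16324g, -2.19 for SAKL0H07018g, -2.0 for ADH3 (SAKL0B08184g), -1.80 for SAKL0B05940g, -1.20 for YDR248C and -0.94 for YRB1. On the other side they were 2.70 for PCK1, 2.50 for PYC1, 2.02 for SAKL0C10010g, 1.76 for SAKL0D06292g, 1.74 for RCR2, 1.63 for SAKL0H11770g, 1.61 for YKR045C, 1.5 for PSF3, 1.48 for YIL151C, 1.47 for CCC2, 1.45 for MPD2, 1.38 for HRP1, 1.35 for YKU80, 1.32 for SAKL0E12166g, 1.23 for YGL242C, 1.23 for KCS1 and 1.15 for SPP1.

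Of 292 sets of 4 replicate values looked at, 24 held a value far from the other 3, and chance gives about 1 in 20. Replicate 2 of sef1Δ in YPGly was such a value for IDH1 (-1.59, against 0.20 to 0.40 on the others of its group), MDH3 (2.24, against 3.12 to 3.19), MDH2 (2.28, against 2.89 to 2.99), MRPL24 (-2.66, against -1.61 to -1.49), TDH3 (SAKL0H24926g, 1.81, against 2.94 to 3.12), PSF3 (1.25, against 0.58 to 0.69) and PEX2 (0.17, against -0.51 to -0.42). Over all tested genes, 12.2% of the sets of this group held such a value, against 5.76% in WT in YPGly, 5.03% in sef1Δ in YPD and 6.4% in WT in YPD. Replicate 4 of WT in YPGly stood apart for ACO1 (4.90, against 3.92 to 4.06), IDP3 (4.30, against 2.57 to 2.85), ICL2 (2.97, against 1.11 to 1.29) and NDI1 (-2.46, against -1.82 to -1.73). Replicate 4 of sef1Δ in YPD did so for IMA1 (SAKL0A05654g, -1.28, against -2.05 to -1.94), IMA1 (SAKL0C02112g, -0.68, against -3.66 to -3.21), PCK1 (-3.22, against -4.15 to -4.08) and SAKL0E12166g (-3.17, against -3.82 to -3.74).

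Replicate 3 of sef1Δ in YPGly stood apart for the isomaltase homologs IMA5 SAKL0C00176g (-1.79, against -0.70 to -0.48) and IMA5 SAKL0A00154g (-0.33, against 0.95 to 1.18). Single sets also held such a value for GIT1 (SAKL0G04994g) in replicate 4 of sef1Δ in YPGly (-1.38), MPD2 in replicate 1 (-1.19), KCS1 in replicate 2 (-2.90) and FET2 in replicate 3 (-3.26) of WT in YPGly, YGL242C in replicate 1 of sef1Δ in YPD (-1.06), and SAKL0B05940g in replicate 1 (-2.25) and ARN4 in replicate 4 (-5.92) of WT in YPD.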

How the results depend on the processing

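The 28 calls became 57 with the replicate number as a block (all 28 kept) and 59 with it as a random block. No label ties a number to a shared culture or day, but same-numbered arrays shared a slide and its row. Their deviations from the group means correlated at -0.061 to 0.713, over 0.1 in 21 of 24 pairs, and 15 of 16 arrays were closest to their own number, a hint from the data that the numbers mark a block. Of the named genes without a call, GIT1 (SAKL0G07480g), TDH3, UTP20 and IMA5 (SAKL0A00154g) were called with it. There were 1 and 0 calls on slide 1 and slide 2 alone (4 groups of 2 arrays each; 171 and 229 genes at an unadjusted p under 0.05, and all 28 signs kept), 11 with spike-in scaling, 14 with the dimmer probe, 14 of 2968 genes when a signal of 200 was asked of all 16 arrays (also 14 genes with a larger YPGly effect), 169 with array weights, 276 in an unmoderated model with uncorrected p, and 20 to 54 without 1 array. There were 10 to 23 higher and 7 to 13 lower calls under quantile or median scaling, normexp, the series matrix, the mean of probes or no filter. Calls within the lists, 7 with all arrays, were 12 with the block, 11 with the random block, 1 and 0 by slide, 4 with the filter on all arrays, 31 with array weights and 6 to 13 without 1 array.

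Of the 28 called genes 26 kept their direction under every alternative. The alternatives, among them the single slides, reuse the arrays on which the genes were called, so kept signs are not separate support. With the dimmer probe SAKL0D06292g had -0.0763 and YGL242C -0.30, and the uncalled IDP3 -0.0513. SEF1, at background in the mutant, turned to -0.60 on slide 1 alone, -0.43 with quantile, -0.0341 with spike-in scaling, -0.0864 with the mean of probes, -0.51 with the dimmer probe and -0.29 with weights, and ranged from -0.41 to 0.75 without 1 array. GUT1 turned to 0.42 on slide 1 alone, 0.0048 with normexp, 0.0304 with the mean of probes, 0.14 with the dimmer probe and 0.31 with weights (-0.31 to 0.34 without 1 array). GUT2 turned to 0.76 on slide 1 alone, 0.17 with quantile scaling and 0.44 with weights (-0.32 to 0.37 without 1 array), and ICL2 to 0.0545 on slide 1 alone. The cause of these changes was not tested. Signal near background limits the values of SEF1, MAL11, ECM27, CIT3, RGT2 and ARN4.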

Other observations

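Called genes were not spread evenly over the chromosomes given in the locus tags. Chromosome C holds 11.8% of the genes tested, 6 of the 17 genes called higher and 2 of the 11 called lower. The median interaction of its 501 tested genes was 0.15, against 0.01 for all others, and it was 0.02 against 0.03 on slide 1 alone and 0.34 against -0.01 on slide 2 alone, so the shift was found on 1 slide and its source was not tested. Neighbouring locus tags held MAL11 with IMA1 (SAKL0A05654g), both lower, and MPD2 with SAKL0C10010g, both higher. YIL151C and PCK1 (both higher) and YDR248C and SAKL0H11770g (of opposite sign) were 1 tag further apart.

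The small heat shock gene HSP26 (SAKL0D02794g), named after its values were seen, had the highest fitted interaction of all genes without a call, 3.36 (95% interval -1.91 to 8.64, adjusted p 0.74). Its log2 signals were 2.52, 1.12, 3.34 and 2.74 in sef1Δ in YPGly, against -1.27, -0.39, -1.34 and -1.61 in WT in YPGly. In YPD they were -3.78, 3.25, -3.11 and -5.82 in sef1Δ, against -3.09, 3.28, -4.41 and -6.11 in WT. The strains were separate in glycerol, and in glucose replicate 2 of both strains lay far above the other arrays, at almost the same level.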
